A study of Homo sapiens with 3 samples.

Results

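Long noncoding RNAs (lncRNAs) are transcripts that do not encode a known protein, and a number of them are switched on by the tumor suppressor p53 or act with it. The genes described here are 8 lncRNA genes linked to p53, chosen by name from a table of 63241 genes: MIR34AHG, PURPL, PVT1, TP53TG1, DINOL, LINC-PINT and NEAT1, with MALAT1 as an abundant nuclear reference. All 8 names matched 1 row each, and the annotation lists all 8 as lncRNA. Of these, 7 had enough counts to be tested, and DINOL had 2 counts over all libraries.

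Ribosome profiling (Ribo-seq), which sequences RNA fragments left after nuclease digestion and recovered with single ribosomes, was performed in HEK293T cells expressing a WT, G245S or R273H p53 construct. HEK293T is a human embryonic kidney line that keeps its own p53 gene and makes the large T antigen of SV40, which binds p53. G245S and R273H replace single residues of the DNA-binding domain and recur in tumors. The 9 libraries came from 3 culture dishes per group, all exposed to cycloheximide, and held 18.7 to 24.6 M expected counts each. Per the methods the lines were made with lentivirus and selected with puromycin, whereas the labels describe the expression as stable in places and as transient in others. Dishes of a group shared a pool from reverse transcription on, so group and pool cannot be told apart, and p-values measure the spread between dishes of a pool. A group without a construct was not analysed here.

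The cell identity was checked with a marker list, of which the epithelial keratin KRT18 (116 ± 4.44 CPM in WT, SD, n = 3 dishes), the neurofilament NEFM (274 ± 5.76 CPM) and the nephron lineage factor SIX2 (13.6 ± 0.866 CPM) were present. CPM is the count per M counts of a library. The blood marker PTPRC and the endothelial marker PECAM1 averaged 1.22 and 0.333 counts per library. Of all 19820 genes tested, 2498 were higher and 2402 lower in G245S than in WT, and 2807 and 2900 in R273H. Of 9 markers tested, 1 was higher and 2 were lower in G245S than in WT, and 3 were higher and 2 lower in R273H. Among these, the nephron lineage factor LHX1 was higher in both mutants (0.51 and 0.64 on the log2 scale, adjusted p = 0.012 and 0.00115) and the neurofilament NEFL was lower in both (-0.32 and -0.24, adjusted p = 8.71e-09 and 4.9e-07). PAX2, another nephron lineage factor, was called in R273H (0.35, adjusted p = 0.0359), with 0.33 in G245S (adjusted p = 0.0671). The keratin KRT8 had 0.06 in G245S (adjusted p = 0.44), rose by 0.36 in R273H (adjusted p = 1.34e-06) and differed between the mutants (-0.30, adjusted p = 0.000527). The LHX1 call in G245S was lost without WT dish 3 or G245S dish 3, and the PAX2 call without WT dish 1 or dish 3 or R273H dish 2 or dish 3. The 4 markers of other cell types (PTPRC, CD68, PECAM1 and COL1A1) summed to 31.6 to 35 CPM in the WT libraries, 25.9 to 31.1 CPM with G245S and 27.1 to 30.3 CPM with R273H. Nearly all of this was COL1A1, a fibroblast collagen, which fell by 0.21 with G245S (adjusted p = 0.0178) and fell by 0.24 with R273H (adjusted p = 0.00448) on the log2 scale, the former call being lost without WT dish 1 or dish 2 or G245S dish 3. The part of these markers in the results below was not tested.

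WT p53 is a transcription factor that binds DNA as a tetramer at a response element made of a pair of short half-sites. Its best known outputs are protein-coding genes such as CDKN1A, which halts the cell cycle, and MDM2, which returns p53 to low levels. Its noncoding outputs include the primary transcript of the microRNA miR-34a, RNAs that feed back on p53 itself and architectural RNAs of nuclear bodies. Most of these RNAs are largely nuclear, and footprint libraries can also hold RNA fragments protected by complexes other than ribosomes. RNA-seq of the same cells was not used here, and a footprint count does not separate the amount of an RNA from its association with ribosomes. In a bulk lysate, fewer cells with an RNA and less of that RNA per cell cannot be told apart either.

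The sequences below are background, namely promoter windows that hold matches to the p53 half-site and the mature forms of the miRNA that MIR34AHG hosts. Promoter windows from RefSeq (GRCh38.p14) cover 250 bases before and 50 bases after a transcription start, and each was searched for the p53 half-site consensus of 10 bases, which reads the same on either strand. At least 1 perfect half-site lay in 6.63% of all 35116 windows, whereas 2 half-sites with at most 13 bases between them lay in 10 windows, or 0.0285%. Windows of PURPL and of LNCTAM34A, a lncRNA whose RefSeq start is near that of MIR34AHG on the opposite strand, were among those 10. The capitals mark the 2 adjacent half-sites. The PURPL window lies at chr5:27472042-27472341 on the plus strand and the LNCTAM34A window at chr1:9181954-9182253 on the plus strand.
PURPL: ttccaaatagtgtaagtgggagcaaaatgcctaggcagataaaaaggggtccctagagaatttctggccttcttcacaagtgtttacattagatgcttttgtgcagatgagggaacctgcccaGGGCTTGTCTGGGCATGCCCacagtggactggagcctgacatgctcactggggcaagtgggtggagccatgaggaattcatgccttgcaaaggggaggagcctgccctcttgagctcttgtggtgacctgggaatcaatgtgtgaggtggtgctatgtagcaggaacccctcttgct
LNCTAM34A: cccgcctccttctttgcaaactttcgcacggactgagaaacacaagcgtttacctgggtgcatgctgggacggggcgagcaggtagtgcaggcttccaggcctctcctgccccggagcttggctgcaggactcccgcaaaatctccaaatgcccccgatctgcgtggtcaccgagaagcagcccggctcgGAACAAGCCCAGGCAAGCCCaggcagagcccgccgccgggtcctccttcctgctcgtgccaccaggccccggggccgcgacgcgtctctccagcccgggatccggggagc
The PURPL pair covers the bases from 127 to 108 before the RefSeq start. The LNCTAM34A pair covers the bases from 60 to 41 before its own RefSeq start. It is also 175 to 194 bases downstream of the RefSeq start of MIR34AHG. Gene spans given below are from GENCODE, whose starts differ. By those spans the LNCTAM34A pair (9182144 to 9182163) lies inside LNCTAM34A, which starts at 9182004. The PURPL window likewise lies inside PURPL, which starts at 27217714, and MIR34AHG starts at 9198906 on the minus strand. MIR34AHG is the host of miR-34a, whose hairpin lies in one of its exons. The mature forms are given with the seed (bases 2 to 8) in capitals.
hsa-miR-34a-5p: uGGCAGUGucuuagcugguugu
hsa-miR-34a-3p: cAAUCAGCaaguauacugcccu
They are encoded on the minus strand of chromosome 1, at 9151735 to 9151756 and 9151693 to 9151714. The miRNAs themselves were not measured in these libraries.

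**Figure D1:**
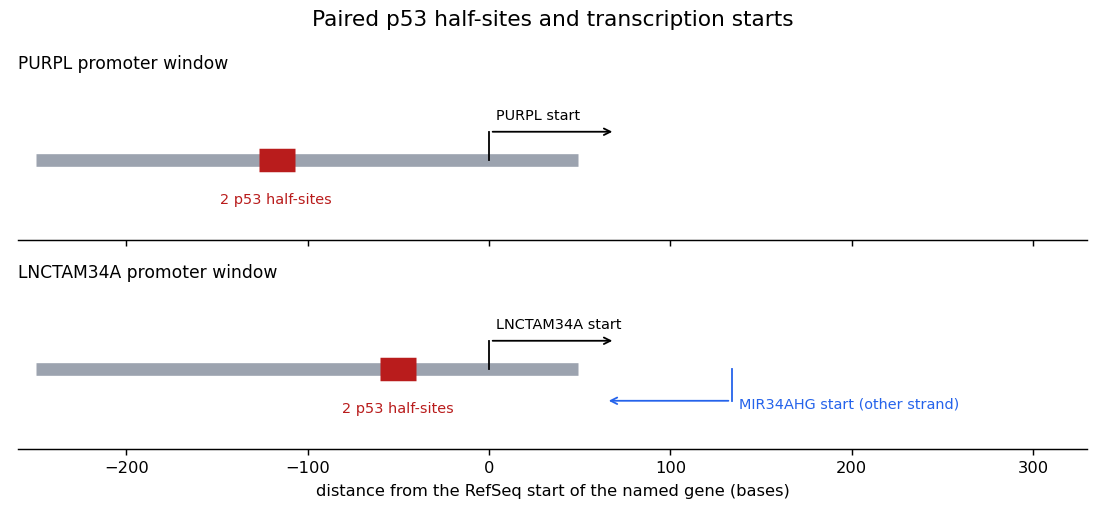
Maps of the promoter windows of PURPL (top) and LNCTAM34A (bottom), with the distance from the RefSeq start in bases on the horizontal axis. Gray bars are the windows, red blocks the paired p53 half-sites (127 to 108 and 60 to 41 bases before the RefSeq start). Arrows are the RefSeq transcription starts, with that of MIR34AHG 134 bases downstream of that of LNCTAM34A on the other strand.

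No perfect half-site was found in the windows of MIR34AHG, TP53TG1 or DINOL (1 each), LINC-PINT (4) or MALAT1 (2), and none in that of CDKN1A, a p53 target. With at most 1 mismatch allowed, 63.7% of all windows held a half-site, among them those of MIR34AHG, 2 of the 4 of LINC-PINT and 1 of the 2 of MALAT1. The 4-letter core CATG lay in 54.9% of all windows, and in those of MIR34AHG, LNCTAM34A, PURPL, 3 of LINC-PINT and 1 of MALAT1. NEAT1 and PVT1 were not analysed here for promoter sequence. A match is a run of letters, and binding was not measured.

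Most of the lncRNAs had fewer footprints in both mutants than in WT. In G245S, 6 of the 7 tested were lower than in WT, and none was higher, where 12.1% of all 19820 genes tested and 10.5% of the 1678 lncRNAs tested were called lower. In R273H, 5 of 7 were lower and none was higher, beside 14.6% of all genes and 11.9% of lncRNAs. The reference MALAT1 is among the 7, and it was called lower in G245S but not in R273H. Every mutant dish was below every WT dish for the same counts of genes, 6 and 5, as for 18.8% of all genes and 23.2% of lncRNAs in G245S and for 20.9% and 22.5% in R273H. The median log2 fold change of the 7 was -0.66 in G245S and -0.76 in R273H, beside -0.17 and -0.14 over lncRNAs and -0.0007 and -0.0024 over all genes. Between the mutants, 1 of 7 differed (MALAT1), where 2.59% of all genes and 1.19% of lncRNAs were called. The 2 comparisons with WT share the WT dishes.

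**Figure D2:**
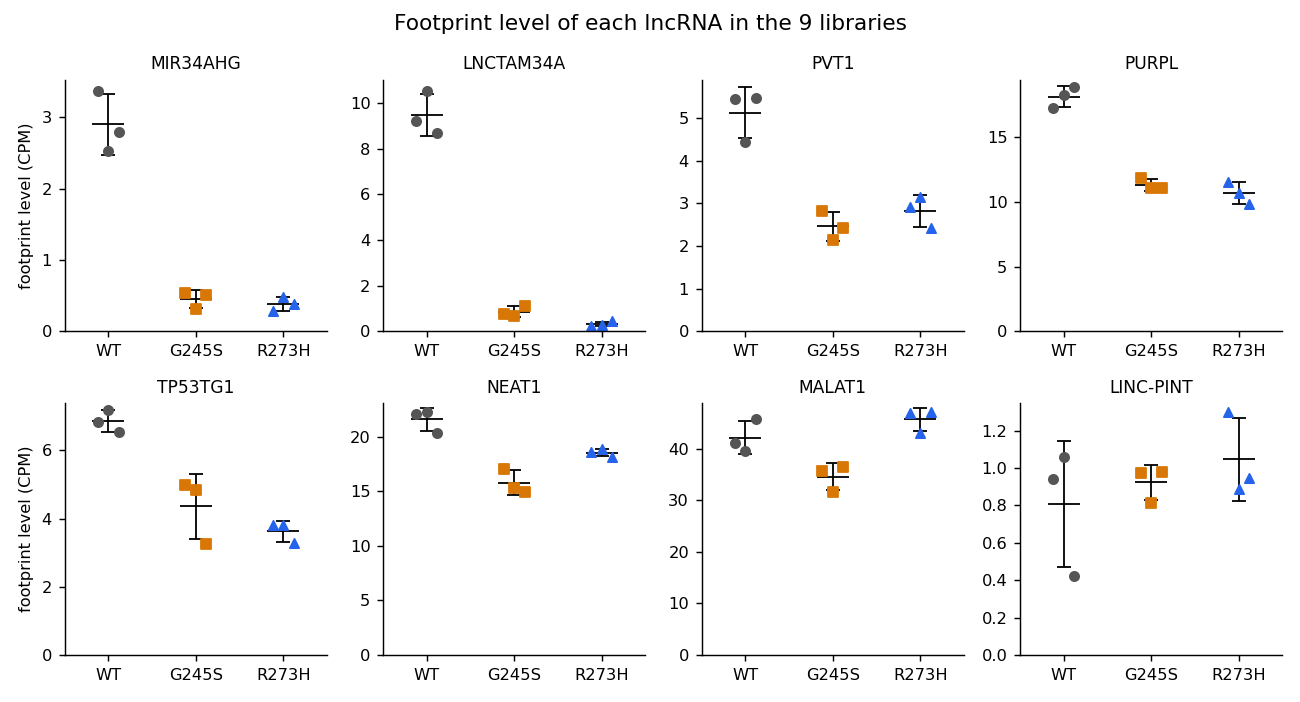
Footprint level (CPM, vertical axis from 0) of 7 lncRNAs and of LNCTAM34A in each library, with 3 dishes per group as points and the mean ± SD as bars. WT dishes lie above all 6 mutant dishes for MIR34AHG, LNCTAM34A, PVT1, PURPL, TP53TG1 and NEAT1, while MALAT1 is lowest in G245S and LINC-PINT overlaps between groups.

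MIR34AHG (ENSG00000228526, chromosome 1, 9148011 to 9198906 on the minus strand in GRCh38), the miR-34a host, showed the largest change of the 7 tested. Its level was 3.38, 2.54 and 2.80 CPM in the WT dishes, 0.542, 0.305 and 0.514 CPM in G245S and 0.285, 0.485 and 0.388 CPM in R273H. Every WT dish was above every mutant dish, and the mutants overlapped. The counts behind these levels were 48 to 68 per WT library and 6 to 12 per mutant library. Relative to WT, G245S had a log2 fold change equal to -2.66 (SE 0.287, adjusted p = 3.6e-08) and R273H one of -2.89 (SE 0.282, adjusted p = 5.4e-09). These correspond to levels 6.34-fold and 7.43-fold lower. The direct comparison of the mutants gave a log2 difference of 0.23 (SE 0.385, adjusted p = 0.832).

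LNCTAM34A (ENSG00000234546, chromosome 1, 9182004 to 9196284 on the plus strand) runs opposite to MIR34AHG and is known as an antisense RNA that promotes transcription of the miR-34a host. It shares 431 bases of exon with MIR34AHG on the other strand. How the counting treated strand is not given in the sources used here, so reads in those bases cannot be assigned to either gene with certainty. WT dishes were at 9.23, 10.5 and 8.71 CPM, G245S dishes at 0.759, 0.661 and 1.12 CPM and R273H dishes at 0.244, 0.283 and 0.431 CPM. The 3 groups were fully separate, with R273H lowest. The counts behind these levels were 165 to 199 per WT library, 13 to 24 per G245S library and 6 to 10 per R273H library. G245S had, against WT, a log2 fold change equal to -3.46 (SE 0.187, adjusted p = 1.49e-14) and R273H one of -4.88 (SE 0.215, adjusted p = 1.15e-16). G245S exceeded R273H by 1.41 on the log2 scale (SE 0.341, adjusted p = 0.0211), a call that was lost when G245S dish 1 (adjusted p = 0.0594) or dish 3 (0.106), or R273H dish 1 (0.119) or dish 2 (0.0932), was left out. It was also lost in a fit of lncRNA genes only (adjusted p = 0.0712) and against a minimum fold of 1.2 (adjusted p = 0.458).

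The protein-coding genes on either side of the MIR34AHG locus had smaller values. GPR157, a receptor gene, was at -0.07 with G245S (adjusted p = 0.725) and at 0.06 with R273H (adjusted p = 0.741) on the log2 scale. H6PD, an enzyme of the endoplasmic reticulum, had -0.15 (adjusted p = 0.282) and fell by 0.30 on the log2 scale in R273H (adjusted p = 0.0162), a call lost without R273H dish 1 or dish 3 or WT dish 2.

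PURPL (ENSG00000250337, chromosome 5, 27217714 to 27497871 on the plus strand), a p53-induced RNA known to hold p53 at low levels through the protein MYBBP1A, was lower in both mutants. Levels in WT were 17.2, 18.3 and 18.9 CPM, those in G245S 11.9, 11.0 and 11.1 CPM and those in R273H 11.5, 10.7 and 9.83 CPM. The mutant dishes formed a single range below WT. Against WT, G245S had a log2 fold change equal to -0.68 (SE 0.0822, adjusted p = 3.15e-07) and R273H one of -0.76 (SE 0.0802, adjusted p = 2.38e-08). It decreased by 37.6% in the former and by 41.0% in the latter. No annotated protein-coding gene overlaps PURPL. Its nearest protein-coding neighbours, the cadherin genes CDH9 and CDH6, averaged 0 and 0.889 counts per library and were not tested. MYBBP1A, its partner, was higher in both mutants, by 0.33 with G245S (adjusted p = 6.03e-11) and 0.23 with R273H (adjusted p = 5.47e-08) on the log2 scale.

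TP53TG1 (ENSG00000182165, chromosome 7, 87322943 to 87345560 on the minus strand), a p53-induced RNA known to bind the protein YBX1, was lower in both mutants too. The WT dishes gave 6.85, 7.19 and 6.54 CPM, the G245S dishes 4.99, 4.83 and 3.27 CPM and the R273H dishes 3.82, 3.80 and 3.28 CPM. G245S dish 3 was below the other dishes of that group and just below the lowest R273H dish. Relative to WT, G245S had a log2 fold change equal to -0.66 (SE 0.142, adjusted p = 0.000845) and R273H one of -0.91 (SE 0.141, adjusted p = 1.23e-05), and without G245S dish 3 the former was -0.48 (adjusted p = 0.0147). CROT, a peroxisomal enzyme gene transcribed in the opposite direction from a start only 104 bases away, was at 27.2 ± 1.09 CPM in WT, while G245S was at 26.7 ± 0.759 CPM and R273H at 26.9 ± 0.332 CPM (SD, n = 3 dishes each). Its log2 fold changes were -0.02 (SE 0.057, adjusted p = 0.807) and -0.02 (SE 0.0552, adjusted p = 0.867). Whether TP53TG1 and CROT differ in their change was not tested.

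DINOL (ENSG00000285244, chromosome 6, 36677609 to 36678559 on the minus strand), a damage-induced RNA known to stabilize p53, is transcribed opposite to CDKN1A and shares 146 bases of exon with it. It had 1 count in 1 WT library, 1 count in 1 G245S library and 0 counts in the other 7. A count of 0 allows up to 3 counts, or 0.122 to 0.160 CPM depending on the library, so no difference was detectable at this depth, and no fold is given. These limits cover counting error only. CDKN1A itself was at 61.1 ± 2.27 CPM in WT, while G245S was at 16.1 ± 0.345 CPM and R273H at 13.9 ± 0.515 CPM.

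LINC-PINT (ENSG00000231721, chromosome 7, 130791264 to 131110176 on the minus strand), a p53-induced RNA known to contact the chromatin repressor PRC2, showed no call. WT dishes were at 0.943, 1.06 and 0.422 CPM, G245S dishes at 0.976, 0.814 and 0.981 CPM and R273H dishes at 1.30, 0.890 and 0.949 CPM. All groups overlapped, and WT dish 3 was the lowest library. G245S had, against WT, a log2 fold change equal to 0.19 (SE 0.335, adjusted p = 0.738) and R273H one of 0.37 (SE 0.320, adjusted p = 0.424). With 8 to 32 counts per library, the SE was larger than that of any other member tested in either comparison with WT. Without WT dish 3 the value in G245S was -0.11 (adjusted p = 0.860), and the value in R273H lay between 0.07 (without WT dish 3) and 0.60 (without WT dish 2) when a dish was left out. Its 81 bases of shared exon with MKLN1, on the other strand, involve a gene at 97.1 ± 4.68 CPM in WT that rose by 0.15 in R273H (adjusted p = 0.00242).

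PVT1 (ENSG00000249859, chromosome 8, 127794526 to 128187101 on the plus strand) lies downstream of the growth regulator MYC, and a p53-induced form of it is known to restrain Myc in mouse cells. Levels in WT were 5.46, 4.44 and 5.49 CPM, those in G245S 2.82, 2.14 and 2.43 CPM and those in R273H 2.93, 3.15 and 2.42 CPM. Every WT dish exceeded every mutant dish. Against WT, G245S had a log2 fold change equal to -1.06 (SE 0.164, adjusted p = 1.56e-05) and R273H one of -0.85 (SE 0.155, adjusted p = 0.000106). MYC, whose nearest end lies 51575 bases away, moved the other way, from 170 ± 5.41 CPM in WT up to 204 ± 4.07 CPM with G245S and 224 ± 1.51 CPM with R273H (SD, n = 3 dishes each). Its log2 fold change was 0.26 (adjusted p = 9.59e-08) and 0.40 (adjusted p = 9.86e-12), and the mutants differed by -0.14 (G245S minus R273H, adjusted p = 0.00477). The PVT1 counts do not separate its forms, and whether the changes of PVT1 and MYC are linked was not tested.

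A transcribed pseudogene, ENSG00000278275, lies within PVT1 on the other strand and shares 295 bases of exon with it. It was at 1.02 ± 0.123 CPM in WT, while G245S was at 1.73 ± 0.419 CPM and R273H at 1.74 ± 0.120 CPM, with a log2 fold change of 0.77 in either mutant (adjusted p = 0.0229 and 0.0174). Both calls were lost without WT dish 1 or WT dish 2, and also without G245S dish 2 or dish 3 for the former and without R273H dish 1 for the latter. Since pseudogene reads can be shared out among near-identical copies, this row is uncertain. GSDMC, the next protein-coding gene on the far side of PVT1, averaged 0.336 counts per library.

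NEAT1 (ENSG00000245532, chromosome 11, 65422774 to 65445540 on the plus strand), the RNA around which the nuclear bodies called paraspeckles assemble, was lower in both mutants by a smaller amount. The WT dishes gave 22.1, 22.3 and 20.4 CPM, the G245S dishes 17.1, 15.4 and 14.9 CPM and the R273H dishes 18.6, 18.9 and 18.2 CPM. The groups were separate, in the order WT, R273H, G245S. With G245S it decreased by 27.1%, a log2 fold change equal to -0.46 (SE 0.0707, adjusted p = 1.65e-05). With R273H it decreased by 14.0%, a log2 fold change equal to -0.22 (SE 0.0666, adjusted p = 0.014). The R273H call was lost without WT dish 1 (adjusted p = 0.0575), without WT dish 2 (adjusted p = 0.0661) and in a DESeq2 test (adjusted p = 0.0704). The direct comparison of the mutants gave -0.24 (SE 0.0701, adjusted p = 0.0683), which passed the threshold with library totals in place of TMM scaling (adjusted p = 0.0477), when the test was kept to genes averaging 100 counts or more (adjusted p = 0.0408) and with dish number as a replicate block (adjusted p = 0.0259).

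MALAT1 (ENSG00000251562, chromosome 11, 65497640 to 65508073 on the plus strand), an abundant RNA of nuclear speckles, served as the reference, and with TMM scaling, no block and all 19820 genes it was the only member that differed between the mutants by the test. WT dishes were at 41.1, 39.6 and 45.9 CPM, G245S dishes at 35.7, 31.6 and 36.5 CPM and R273H dishes at 47.0, 43.2 and 47.1 CPM. G245S lay below both other groups, and WT and R273H overlapped. Relative to WT, G245S had a log2 fold change equal to -0.28 (SE 0.0615, adjusted p = 0.00112) and R273H one of 0.12 (SE 0.0574, adjusted p = 0.131). G245S was below R273H by 0.40 on the log2 scale (SE 0.0590, adjusted p = 0.000324). Against a minimum fold of 1.2, neither MALAT1 call held (adjusted p = 0.939 and 0.83). Without WT dish 3, its difference in R273H was 0.18 and passed the test (adjusted p = 0.0208). With dish number as a replicate block, that difference was 0.12 and also passed (adjusted p = 0.0313).

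NEAT1 and MALAT1 lie near each other, with the protein-coding gene FRMD8 before NEAT1. FRMD8, which helps sheddases mature at the cell surface, fell by 0.28 with G245S (adjusted p = 0.00478) and fell by 0.50 with R273H (adjusted p = 3.6e-06) on the log2 scale, and the former call was lost without G245S dish 3 (adjusted p = 0.0656). The order of the group means therefore differed among these 3 neighbouring genes, but not every difference behind it was called. Between the mutants, FRMD8 was at 0.23 (adjusted p = 0.0992), with overlapping dishes. TALAM1, the antisense partner that covers 8121 bases of MALAT1, averaged 0.111 counts per library.

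**Figure D3:**
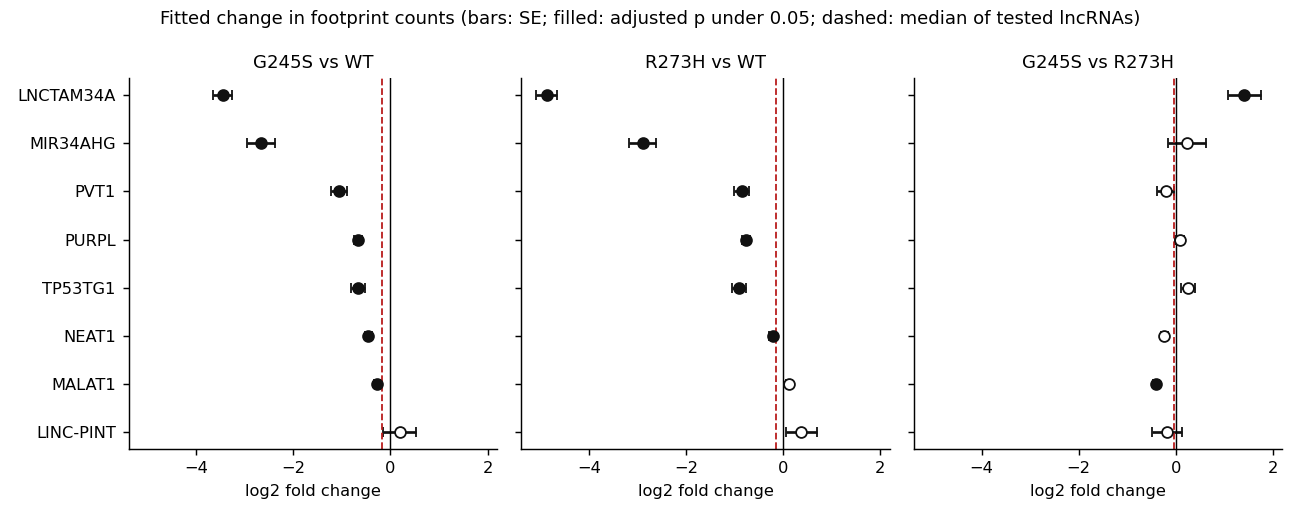
Log2 fold change (horizontal axis) of 7 lncRNAs and of LNCTAM34A in the 3 comparisons, with SE bars, filled points at an adjusted p under 0.05 and the median of tested lncRNAs as a dashed line (-0.17, -0.14 and -0.03). The leftmost points are LNCTAM34A and MIR34AHG in both comparisons with WT, and in the comparison of mutants only LNCTAM34A and MALAT1 are filled.

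Summed over the 8 genes, their share was 98.0 ± 1.76 per M counts in WT, 69.2 ± 3.66 in G245S and 83.1 ± 2.40 in R273H (SD, n = 3 dishes each). The WT share exceeded the share in every mutant dish, and the two-sided exact permutation test gave p = 0.1 for each mutant, the smallest that 3 dishes against 3 allow. NEAT1 and MALAT1 made up 64.0 ± 1.72 per M in WT, 49.9 ± 2.87 in G245S and 64.5 ± 1.82 in R273H. The other 6 genes made up 34.0 ± 0.139, 19.3 ± 1.41 and 18.6 ± 1.64 per M. Between the mutants, the share of these 6 overlapped and the exact permutation p was 0.7.

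Levels can be compared between genes only per length. With all annotated exons of a gene as its length, the WT level per kilobase was highest for MALAT1 (4.04 ± 0.313 CPM per kb, SD, n = 3 dishes), followed by TP53TG1 (1.11 ± 0.0521), NEAT1 (0.949 ± 0.0471), PURPL (0.767 ± 0.0356), MIR34AHG (0.333 ± 0.0493), PVT1 (0.202 ± 0.0235), LINC-PINT (0.0296 ± 0.0124) and DINOL (0.0185 ± 0.0321, at the floor). Only LINC-PINT and DINOL, neighbours in that order, had overlapping mean ± SD ranges. Over the 9 libraries, MALAT1 was above 90.6% of tested lncRNAs and 48.9% of tested protein-coding genes, whereas LINC-PINT was above 0.656% and 0.147%. The median was 0.625 CPM per kb for lncRNAs and 4.12 for protein-coding genes.

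This order rests on the length chosen, since PVT1 and LINC-PINT have 190 and 69 annotated transcripts with 25431 and 27290 bases of exon in all. With the longest transcript as length, PVT1 (2450 bases) was at 2.09 CPM per kb in WT and ranked 3 of 8, and TP53TG1 was at 2.16. PURPL was then at 1.76 CPM per kb, MIR34AHG at 0.651 and LINC-PINT at 0.126. NEAT1 and MALAT1, each with a transcript that covers all or nearly all of the gene, were at 0.950 and 4.04.

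**Figure D4:**
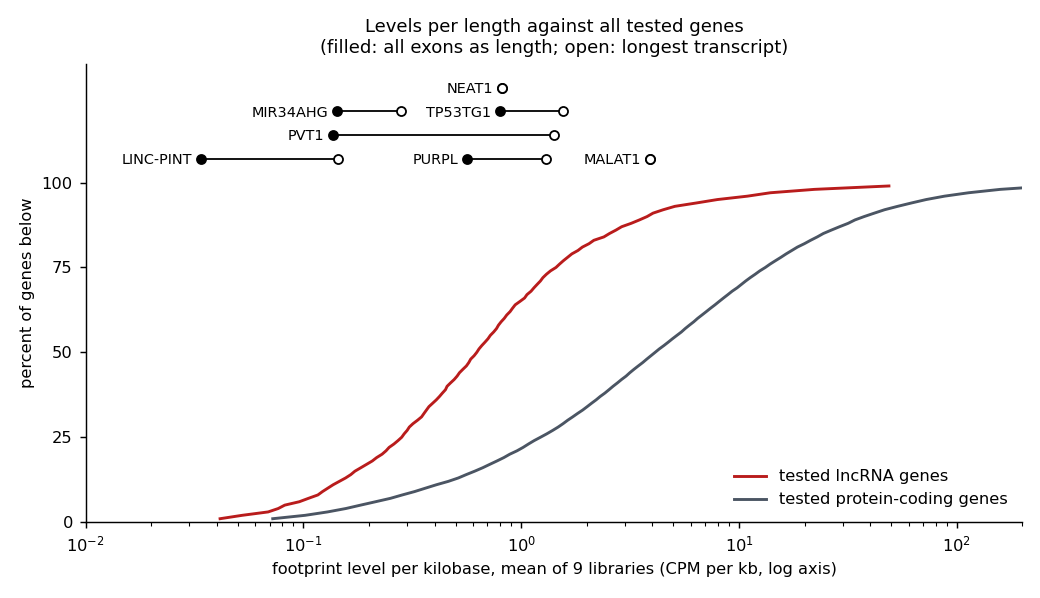
Cumulative share of tested lncRNA and protein-coding genes (vertical axis, percent of genes below) by footprint level per kilobase (CPM per kb, mean of 9 libraries, log axis). Symbols above the curves are 7 lncRNAs linked to p53, filled with all exons as length and open with the longest transcript. Both curves use all exons as length, so only the filled symbols can be read against them. Of the filled symbols, only that of MALAT1 lies near the median of protein-coding genes (4.12). With the longest transcript as length, the medians were 0.825 for lncRNAs and 5.75 for protein-coding genes.

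Protein-coding p53 targets, a list of 30 genes of which 28 were tested, gave the setting in which the lncRNAs moved. Of all genes tested, 12.1% were lower in G245S and 14.6% in R273H. In each mutant 27 of 28 targets were lower than in WT and none was higher, with a median log2 fold change of -1.22 in G245S and -1.24 in R273H. The exception, in both, was RRM2B, a ribonucleotide reductase subunit, at -0.09 (adjusted p = 0.29) and -0.07 (adjusted p = 0.346). Among the largest changes, TP53I3, an oxidoreductase, had -4.03 and -4.19, and the p53 ligase MDM2 had -3.48 and -3.49. PHLDA3, an inhibitor of AKT signaling, had -3.27 and -3.61, and SPATA18, a mitochondrial quality control factor, had -3.21 and -3.70. The members' medians were thus smaller in size than those of the protein-coding targets, and the difference between the lists was not tested.

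A second list held other lncRNAs linked to p53. Of its 12 names, 11 matched a row and 7 were tested. In G245S, 2 were lower (LNCTAM34A and NORAD) and 1 was higher (GAS5), where 2402 of all 19820 genes tested were lower and 2498 higher. In R273H, 2 were lower (LNCTAM34A and TUG1) and 2 were higher (GAS5 and SNHG1), where 2900 of all genes were lower and 2807 higher. GAS5, a growth arrest RNA that hosts small nucleolar RNAs, went from 27.2 ± 0.455 CPM in WT up to 31.1 ± 1.78 CPM with G245S and 34.5 ± 1.37 CPM with R273H, with a log2 fold change of 0.19 (adjusted p = 0.0143) and 0.34 (adjusted p = 2e-05). The G245S call was lost without WT dish 2 or G245S dish 1. It was also lost in a DESeq2 test (adjusted p = 0.0504), in a fit of lncRNA genes only (adjusted p = 0.089) and against a minimum fold of 1.2. NORAD, which sequesters Pumilio proteins, fell by 0.31 in G245S (adjusted p = 0.0119), a call lost without WT dish 2 (adjusted p = 0.102). TUG1 in R273H (-0.15, adjusted p = 0.0379) lost its call without WT dish 2, WT dish 3 or any R273H dish. The median of the 7 was -0.15 in G245S and -0.09 in R273H.

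Among 16 further well-known lncRNAs tested, of which 4 stand in the list before, 2 were lower and 1 was higher in G245S, and 3 were lower and 2 higher in R273H. Of all 19820 genes tested, 2402 were lower and 2498 higher in G245S, and 2900 and 2807 in R273H. Of the 1678 lncRNAs tested these were 177 and 32, and 200 and 53. LINC00667 had the largest value of the 16 in both mutants (-0.58 and -0.53, adjusted p = 0.0355 and 0.0383), and each of these calls was lost when any of the 6 dishes compared was left out. The median was -0.07 and -0.04, close to that of all genes. DANCR, known from the control of differentiation, fell by 0.15 in R273H (adjusted p = 0.0163), a call lost without WT dish 1 or R273H dish 1 or dish 3.

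Known protein partners of the members had values in both directions. Of 11 tested, 2 were lower and 3 higher in G245S, and 4 were lower and 4 higher in R273H. Beside these, 2402 of all 19820 genes tested were lower and 2498 higher in G245S, and 2900 and 2807 in R273H. The largest changes on the list were those of MYBBP1A and MYC, given with PURPL and PVT1 above. The paraspeckle protein SFPQ, which binds NEAT1, fell by 0.10 (adjusted p = 0.000985) and by 0.17 (adjusted p = 1.21e-06), and RBM14, another, by 0.08 (adjusted p = 0.0337) and by 0.16 (adjusted p = 1.83e-05) on the log2 scale. The first RBM14 call was lost in 5 of the 6 fits without a WT or G245S dish. NONO, the dimer partner of SFPQ, was at 0.00 in G245S (adjusted p = 0.926) and fell by 0.10 in R273H (adjusted p = 0.000547). SUZ12, a PRC2 subunit, was higher by 0.13 (adjusted p = 0.0237) and 0.14 (adjusted p = 0.00788), and the former was lost without WT dish 1 or dish 3 or G245S dish 3.

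Finally, the genes with the most similar pattern over the 9 libraries were found by Pearson's r of log2 CPM among 12653 genes, as a description with no test, since the 9 points fall into 3 groups of dishes. For MIR34AHG these were SYT1 (r = 0.994), SNRNP27 (r = 0.993) and CCDC34 (r = 0.992). For PURPL they were LENG1 (r = 0.995), the unnamed lncRNA ENSG00000288873 on chromosome 9 at 136848770 to 136849648 (r = 0.992) and SEC61A1 (r = 0.989). That unnamed lncRNA had a log2 fold change of -3.22 in G245S and -3.44 in R273H, whereas LENG1 had -0.44 and -0.46 and SEC61A1 -0.20 and -0.23. SNRNP27, given for MIR34AHG, had -0.24 and -0.28. A high r therefore does not mean a change of similar size. For PVT1 the most similar genes were DDX23 (r = 0.988), PLAAT3 (r = 0.978) and ANXA4 (r = 0.975), and for TP53TG1 CREB3 (r = 0.990), ZIC2 (r = 0.988) and PNMA1 (r = 0.984). For NEAT1 they were LGALS3BP (r = 0.970), SPIN4 (r = 0.969) and STX8 (r = 0.969). For MALAT1 they were EPB41L2 (r = 0.956), PNISR (r = 0.943) and MYNN (r = 0.939).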

How the data were processed

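Ribo-seq footprints were measured in 9 libraries, 3 dishes for each of WT, G245S and R273H p53. Per the labels and the methods, reads were trimmed with Trim Galore and cutadapt, cleared of rRNA with SortMeRNA and aligned to GRCh38 with STAR. The deposited values are expected counts per gene, that is estimated counts that need not be whole, without scaling. The counting tool, the annotation release and the handling of strand and of reads with several matches are not given in the sources used here. Values above 0 were not whole in 61.5% to 63.7% of cases, by library.

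Expected counts were rounded and fitted over all libraries at once by group (edgeR 4.0.16, R 4.3.3, TMM scaling, filterByExpr, robust glmQLFit, two-sided glmQLFTest), with 6 residual degrees of freedom. Adjusted p-values are Benjamini-Hochberg values over the 19820 genes tested, with a threshold of 0.05, and DESeq2 1.42.0 was an alternative. The biological coefficient of variation was 2.58% and TMM factors were 0.987 to 1.01. CPM values use TMM library sizes, so a fold change is measured against the rest of its library. SE values were derived from the fit, as the absolute log2 fold change divided by the square root of the quasi-likelihood F statistic. Exon lengths, coordinates and biotypes come from GENCODE release 44, which 99.09% of the rows matched. Promoters and miRNAs come from RefSeq (GRCh38.p14). On data simulated for the G245S comparison (19485 genes), 75% of 200 changed genes were recovered, from 44.9% at a fold of 1.2 to 96.6% at a fold of 4, with 15 false calls. The simulated counts used the spread of the same fit and genes of all depths. They hold no difference between pools, and recovery at the low counts of single members was not examined.

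Named genes were the 8 members, genes that overlap them on either strand (mean count 10 or more), the nearest protein-coding gene on each side, up to 4 called genes per list with the largest change, and the 3 genes most similar to each called member. RRM2B, TALAM1 and the miRNA rows were named after their values were seen, and some genes that meet the rule are not reported here. The members and lists were chosen with earlier results of these data known. Alternatives covered scaling, filters, tool, minimum fold, libraries, dish number as a block, gene set, length and mismatches.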

Additional observations from a re-analysis of the deposited data

Results flagged for a closer look

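The mutants' effects relative to WT were compared directly (G245S minus R273H, edgeR quasi-likelihood test, log2 scale), and 9 of the named genes passed. Of all 19820 genes tested, 513 (2.59%) passed. By list, the 9 were 2 of 28 protein-coding p53 targets, 3 of 11 protein partners and 1 of 9 markers. The rest were 1 of 7 members, 1 of 7 other lncRNAs linked to p53 and 1 of 16 well-known lncRNAs. MALAT1 was the member among the 9, at -0.40 (adjusted p = 0.000324), with all 3 G245S dishes below all 3 R273H dishes. LNCTAM34A, antisense to MIR34AHG, was at 1.41 (adjusted p = 0.0211), and MIR34AHG itself at 0.23 (adjusted p = 0.832). Of the other lncRNAs, MIR17HG was at -0.37 (adjusted p = 0.0407).

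Protein-coding genes on the same list were DDB2, a DNA damage sensor and p53 target, at 0.51 (adjusted p = 4.35e-05), and BAX, a p53 target that permeabilizes mitochondria, at 0.19 (adjusted p = 0.00268). The PVT1 neighbour MYC was at -0.14 (adjusted p = 0.00477). The epithelial keratin KRT8 was at -0.30 (adjusted p = 0.000527). Among protein partners, NONO was at 0.11 (adjusted p = 0.00483) and MYBBP1A at 0.10 (adjusted p = 0.0299). With 3 dishes per group, single libraries were not tested for standing apart. Calls for MIR17HG and MYBBP1A were each lost in 5 of the 9 fits that leave out a dish, that for LNCTAM34A in 4 and that for NONO in 1.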

How the results depend on the processing

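Of 384 member values under 19 alternatives, 372 kept their side of the threshold, 7 lost a call, 5 gained one and no called value changed sign. MIR34AHG, PURPL, PVT1 and TP53TG1 kept both calls against WT in every alternative that tested them. The count of members called was 5 in R273H and fell to 3 of 4 tested when genes averaged 100 counts or more, a filter that removes MIR34AHG, PVT1 and LINC-PINT. Between the mutants it was 1, rising to 2 with library totals only, at a mean of 100 counts or more and with dish number as a replicate block, where NEAT1 was added (adjusted p = 0.0477, 0.0408 and 0.0259), and falling to 0 against a minimum fold of 1.2 (3 genes overall against 513). Leaving out a dish gave 6 called in G245S, 4 to 6 in R273H and 1 between the mutants. NEAT1 in R273H had an adjusted p of 0.00648 to 1 over its alternatives, 0.0689 among lncRNAs alone. The difference in summed share was -30.6 to -27.0 per M in G245S and -16.2 to -13.9 in R273H without a dish. Dish numbers were not taken as pairs, since the labels name no shared batch and same-number deviations, correlated at 0.044 to 0.234, passed 0.1 in 4 of 9 pairs. Libraries correlated best with their own number in 17 of 18 comparisons, a hint of pairing from the data. With the replicate block, MALAT1 in R273H passed (0.12, adjusted p = 0.0313), and calls over all genes were 5779, 6547 and 1262 beside 4900, 5707 and 513. DESeq2 gave no adjusted p between the mutants for members other than MALAT1. A minimum fold of 1.2 left 547 and 693 against WT, and leaving out a dish left 162 to 712 between the mutants. With library totals only, 278 higher and 261 lower genes between the mutants replaced 368 and 145. The cause of these changes was not tested. Of 1936 values of other named genes, 148 lost a call and 26 gained one. In the DESeq2 test, G245S calls of GAS5, KLF14, LINC00667, SUZ12, COL1A1 and the pseudogene within PVT1 were lost (adjusted p = 0.0504 to 0.143). R273H calls of H6PD, KLF14, TMEM243, TUG1, DANCR, LINC00667, PAX2 and that pseudogene were lost there too (adjusted p = 0.0629 to 0.164). The depth limits DINOL and LINC-PINT.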

Other observations

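Over the 1678 lncRNAs tested, 177 fell and 32 rose in G245S, and 200 fell and 53 rose in R273H. Protein-coding genes were split more evenly, with 2062 that fell and 2088 that rose in G245S, and 2393 and 2222 in R273H. Whether the classes differ was not tested.

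Small RNAs inside the members had few counts. The miR-34a hairpin row MIR34A averaged 0.111 counts per library, MIR29A in LINC-PINT 1.56, MIR29B1 there 0, and MIR612 in NEAT1 5.32. KLF14 and PODXL, the nearest protein-coding genes that do not overlap LINC-PINT, were both lower. For KLF14, which encodes a transcription factor, the log2 values were -0.98 with G245S (adjusted p = 0.0186) and -0.96 with R273H (adjusted p = 0.0139), and for PODXL, a surface sialomucin, -0.47 (adjusted p = 6.67e-09) and -0.36 (adjusted p = 5.18e-07). The KLF14 calls were lost without WT dish 1, G245S dish 2 or G245S dish 3 and without WT dish 1 or R273H dish 2. TMEM243, on the far side of TP53TG1, had -0.21 (adjusted p = 0.0908) and -0.25 (adjusted p = 0.0354), the latter lost without WT dish 1 or dish 2 or R273H dish 2 or dish 3. SRSF3, a splicing factor near CDKN1A and DINOL, had -0.05 (adjusted p = 0.111) and -0.10 (adjusted p = 0.0023).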
